A study of Mus musculus with 78 samples.

Results

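Mouse inner cell mass at embryonic day (E) 4.0 was compared with the epiblast that it gives rise to at E5.5. The comparison rested on 4 RNA-seq samples, 2 of E4.0 inner cell mass and 2 of E5.5 epiblast, of the 78 samples in a series on early lineage formation, and they were chosen by their stage and tissue labels. All 4 came from crosses of C57BL/6N females with DBA/2N males. The E4.0 mothers had been superovulated with gonadotrophins, and the inner cell mass was freed of trophectoderm by immunosurgery, which kills the outer cells with antibody and complement, and was lysed directly. The E5.5 mothers had mated naturally, and RNA was taken up on a column. Superovulation, immunosurgery and lysis thus changed together with stage, and in this comparison they cannot be told apart from stage. Polyadenylated RNA of both was made into libraries by Smart-Seq2, a full-length method that does not keep strand. How many embryos went into a library, and whether replicates were independent litters, is not in the labels. The p-values thus measure only the spread between replicate libraries, which was shared over 11 in vivo groups of 2 libraries. E5.5 visceral endoderm, with 2 libraries and the same preparation as E5.5 epiblast, served as a second reference.

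The inner cell mass of the late blastocyst holds naive epiblast, the source of the embryo proper, and primitive endoderm, the source of the yolk sac endoderm. After implantation the epiblast becomes a polarised epithelium around a small cavity. It passes from naive pluripotency, held up by LIF and by factors such as Tfcp2l1 and Esrrb, to a formative state marked by Fgf5, Otx2 and Pou3f1, while Pou5f1 and Sox2 stay on. De novo methyltransferases cover the genome with DNA methylation in the same window, and metabolism is known to shift towards glycolysis.

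Levels are in FPKM, the fragments mapped to a transcript scaled to its length and to the depth of the library, and each pair of values is replicate 1 and replicate 2. A log2 difference is E5.5 epiblast minus E4.0 inner cell mass on log2(FPKM+1), a scale that understates changes of low genes, and it is given with its standard error (SE). The verbs rose and fell are kept for genes with a limma Benjamini-Hochberg adjusted p under 0.05 and a log2 difference of at least 1 in size, which are also referred to as called. Genes listed at 0 in both libraries of a group are given no fold. The files hold no read counts, so the depth of the libraries is unknown, and their FPKM values summed to between 345173 and 438472. Paired libraries correlated over log2(FPKM+1) at r = 0.968 for E4.0 and 0.971 for E5.5, and libraries of different stage at 0.860 to 0.869. The replicates of E4.0, and those of E5.5 visceral endoderm, differed in sex-linked RNA, which was noticed after the values were seen. Xist, whose reads cannot be told from those of its antisense gene Tsix, was at 26.4 and 0.647 FPKM at E4.0, and the Y-linked Ddx3y at 11.002 and 36.1 FPKM. In E5.5 epiblast Xist was at 4.73 and 2.42 FPKM and Ddx3y at 8.17 and 11.3 FPKM. In visceral endoderm they were at 48.7 and 1.51 FPKM and at 0 and 11.39 FPKM. The part of this in the results was not tested.

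Of 12874 genes tested, 1438 rose and 1493 fell from E4.0 inner cell mass to E5.5 epiblast, so that 22.8% were called, 11.2% upwards and 11.6% downwards. The median log2 difference over all tested genes was 0.049. Counts of called list members given below stand against the 22.8% of all genes. For 2922 of the 2931 calls the E4.0 and E5.5 libraries did not overlap. The call rule itself favours such a gap, so neither this count nor the same gap in a called gene named below is separate support. The share without overlap over all tested genes was not taken. Other ways of processing are named after results that they changed, and among them were a fit of 15 groups, with the cultured samples added, and a fit of only the 4 libraries compared.

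**Figure D1:**
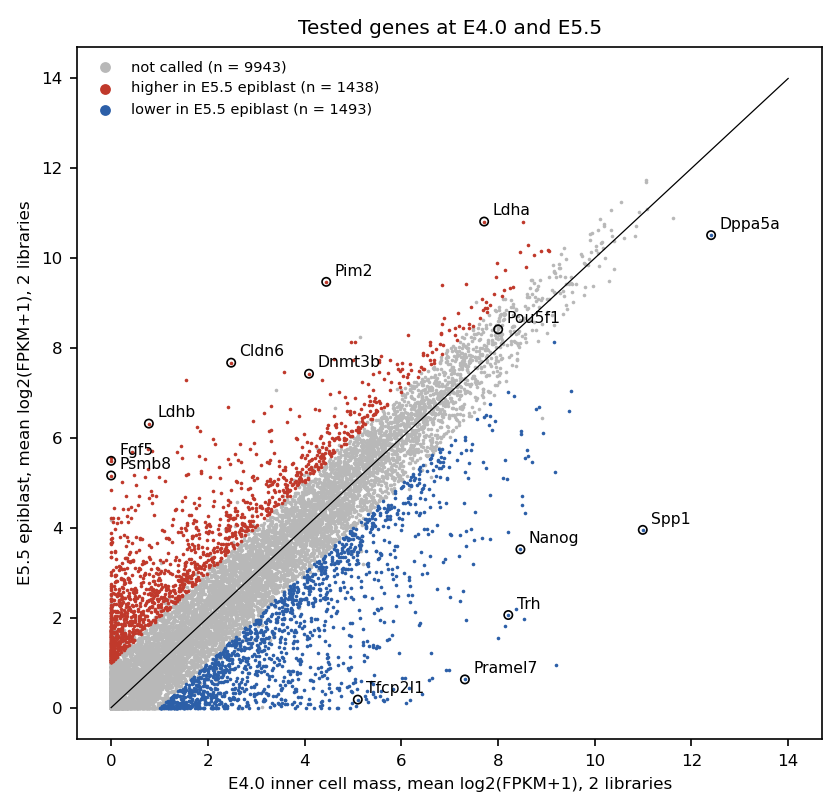
Each point is 1 of 12874 tested genes, placed by its mean log2(FPKM+1) over 2 libraries of E4.0 inner cell mass (horizontal axis) and of E5.5 epiblast (vertical axis). The 1438 risen genes are red, the 1493 fallen genes blue and the rest grey, the diagonal marks equal levels, and 14 named genes are circled, among them Pou5f1 close to the diagonal.

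The 6 markers given with the choice of these samples are described first, with no test of the labels drawn from them, since 5 are among the 10 largest rises or falls. Fgf5, a growth factor secreted by formative epiblast, stood at 3.17e-05 and 1.45e-05 FPKM at E4.0 and 53.2 and 36.3 at E5.5 (log2 difference 5.49, SE 0.50, limma adjusted p = 1.98e-07). Cldn6, a claudin of tight junctions, stood at 9.48 and 1.98 FPKM at E4.0 and 284 and 146 at E5.5 (log2 difference 5.19, SE 0.61, limma adjusted p = 3.7e-06). Ldhb, a lactate dehydrogenase subunit, stood at 0.33 and 1.22 FPKM at E4.0 and 91.03 and 68.4 at E5.5 (log2 difference 5.54, SE 0.85, limma adjusted p = 6.98e-05). In each of these both E5.5 libraries were above both E4.0 libraries, which a place among the 10 largest rises required. Fgf5 and Cldn6 were not called between E5.5 epiblast and visceral endoderm and do not separate the tissues. The secreted matrix protein gene Spp1, or osteopontin, stood at 1782 and 2331 FPKM at E4.0 and 17.4 and 12.1 at E5.5 (log2 difference -7.04, SE 0.55, limma adjusted p = 3.32e-08). The naive factor gene Tfcp2l1 stood at 31.3 and 35.4 FPKM at E4.0 and 0.234 and 0.0377 at E5.5 (log2 difference -4.92, SE 0.32, limma adjusted p = 3.2e-09). Pramel7, of a Prame-like family whose members are similar enough to share reads, stood at 123 and 203 FPKM at E4.0 and 1.39 and 0 at E5.5 (log2 difference -6.69, SE 0.34, limma adjusted p = 1.68e-10). Both E5.5 libraries lay below both E4.0 libraries for these, which a place among the 10 largest falls required of Spp1 and Pramel7. Cldn6 had log2 differences of 6.10 without E4.0 replicate 1 and 4.29 without E4.0 replicate 2. Pramel7 had log2 differences of -7.32 without E5.5 replicate 1 and -6.06 without E5.5 replicate 2.

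Among the 10 largest rises were, beside Fgf5, Cldn6 and Ldhb, genes of lactate export, growth, protein breakdown and detoxification. Slc16a3, the lactate exporter, varied widely within each stage, at 6.29 and 0.16 FPKM at E4.0 and 317 and 75.5 at E5.5 (log2 difference 5.75, SE 0.62, limma adjusted p = 1.37e-06). Pim2, a kinase that promotes growth and survival, was more even, at 25.6 and 16.9 FPKM at E4.0 and 706 and 715 at E5.5 (log2 difference 5.03, SE 0.57, limma adjusted p = 2.29e-06). It was at 683 and 599.9 FPKM in E6.5 epiblast, near its E5.5 level. The immunoproteasome subunit gene Psmb8 was listed at 0 in both E4.0 libraries and reached 33.4 and 36.4 FPKM at E5.5 (limma adjusted p = 5.78e-11). It was down to 4.84 and 5.09 FPKM in E6.5 epiblast. The metallothionein gene Mt3 was likewise listed at 0 in both E4.0 libraries, stood at 31.5 and 24.6 FPKM at E5.5 (limma adjusted p = 4.18e-09) and was lower again at E6.5, at 5.8 and 10.7 FPKM. Psmb8 and Mt3 were thus higher at E5.5 than at the sampled stage on either side. Tmem54, which codes for a membrane protein, was listed at 0 in both E4.0 libraries and stood at 50.3 and 41.7 FPKM at E5.5 (limma adjusted p = 2.07e-08). The zinc finger gene Zfp266 had a log2 difference of 4.87 (SE 0.34), and the glutathione transferase gene Gstt2 of 5.000 (SE 0.49). Slc16a3 had log2 differences of 7.07 without E4.0 replicate 1, 4.42 without E4.0 replicate 2, 4.72 without E5.5 replicate 1 and 6.77 without E5.5 replicate 2.

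Among the 10 largest falls, Spp1 and Pramel7 were joined by genes of transport and hormones. Srgn, the core protein of a proteoglycan, stood at 265 and 522 FPKM at E4.0 and 1.97 and 4.23 at E5.5 (log2 difference -6.56, SE 0.53, limma adjusted p = 4.81e-08). Fabp3, a fatty acid binding protein, stood at 203 and 322 FPKM at E4.0 and 4.95 and 0.442 at E5.5 (log2 difference -6.46, SE 0.61, limma adjusted p = 2.63e-07). Trh, which codes for the precursor of thyrotropin-releasing hormone, stood at 274 and 319.6 FPKM at E4.0 and 7.47 and 1.05 at E5.5 (log2 difference -6.15, SE 0.65, limma adjusted p = 1.11e-06). It was at 1.19 and 0.905 FPKM in E3.5 inner cell mass and at 143 and 129.7 FPKM in E6.5 epiblast, so that its level was high at E4.0 and E6.5 and low at E3.5 and E5.5. Ube2l6, which conjugates the ubiquitin-like protein Isg15, stood at 124 and 127 FPKM at E4.0 and 0.842 and 0.751 at E5.5 (log2 difference -6.14, SE 0.33, limma adjusted p = 3.01e-10). Fbxo15, an F-box gene of naive cells, the serpin gene Serpinb6c and the water channel gene Aqp8 were also among them, with log2 differences of -6.17, -6.11 and -5.999. Fabp3, Fbxo15 and Trh had log2 differences of -7.48, -7.35 and -7.17 without E5.5 replicate 1 and of -5.43, -4.99 and -5.13 without E5.5 replicate 2.

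**Figure D2:**
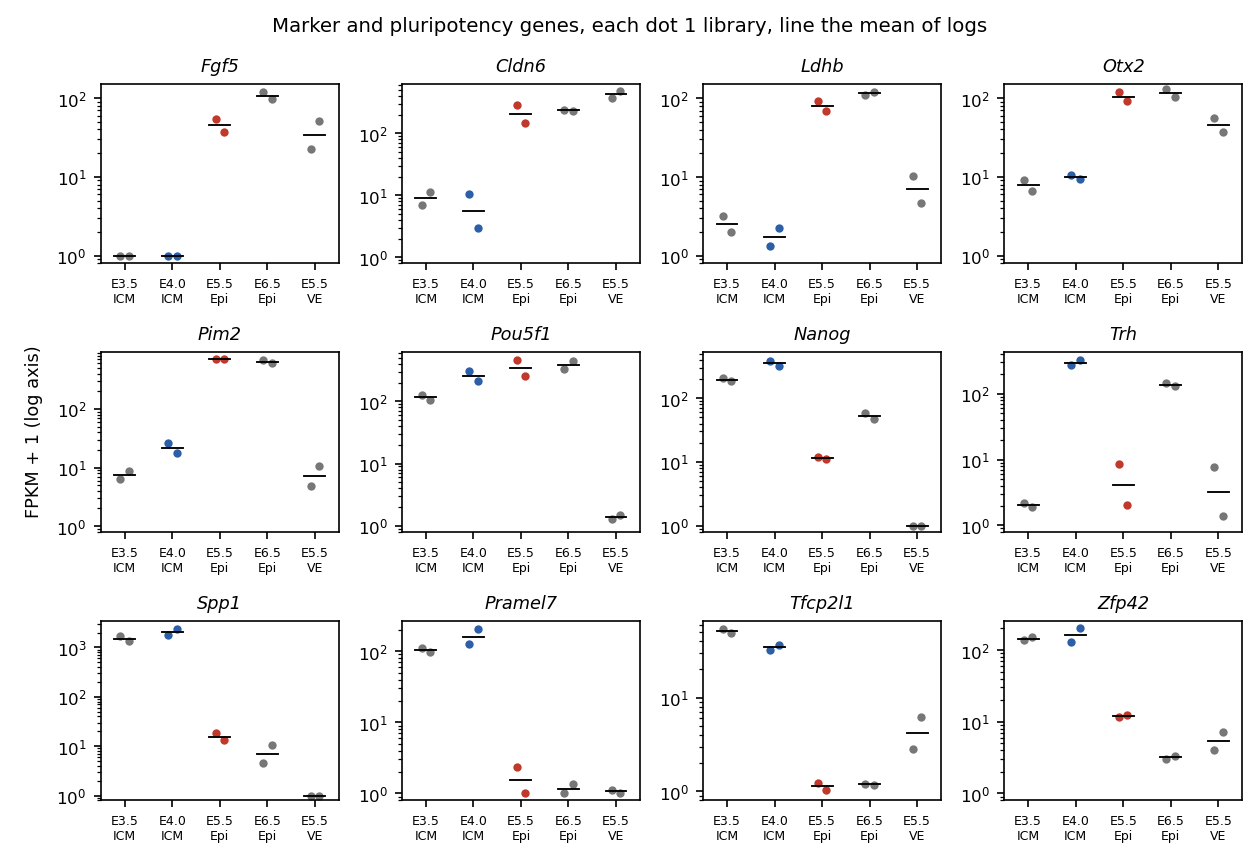
FPKM plus 1 on a log axis for 12 genes in E3.5 and E4.0 inner cell mass (ICM, the latter in blue), E5.5 epiblast (Epi, red), E6.5 epiblast and E5.5 visceral endoderm (VE), with 1 dot per library and a line at the mean of the logs of 2 libraries. Fgf5, Cldn6, Ldhb, Otx2 and Pim2 stand higher at E5.5 than at E4.0, Pou5f1 overlaps, the other 6 stand lower, and Nanog and Trh stand higher again at E6.5.

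Naive pluripotency genes were nearly all lower at E5.5. Of 16 members tested, 15 fell, 0 rose and 1 was not called, with a median log2 difference of -3.70. Prdm14, a repressor of differentiation genes, stood at 19.6 and 18.5 FPKM at E4.0 and 0.0507 and 0 at E5.5 (log2 difference -4.29, SE 0.17). Esrrb, an orphan nuclear receptor gene, stood at 8.07 and 10.8 FPKM at E4.0 and 0.0887 and 0 at E5.5 (log2 difference -3.31, SE 0.17). Tbx3, a T-box factor gene, stood at 53.9 and 34.5 FPKM at E4.0 and 0.348 and 0.0356 at E5.5 (log2 difference -5.22, SE 0.35). None of these kept 1 FPKM in either E5.5 library. Nr0b1, another orphan receptor gene, was at 0.752 and 1.34 FPKM at E3.5, 92.9 and 102 at E4.0 and 1.9 and 0.883 at E5.5 (log2 difference -5.40, SE 0.26, limma adjusted p = 1.32e-10), so that its high level was seen at E4.0 and not at the stages around it. Zfp42, also known as Rex1, stood at 128 and 204 FPKM at E4.0 and 10.8 and 11.3 at E5.5 (log2 difference -3.76, SE 0.32) and was at 2.02 and 2.33 FPKM by E6.5. Nanog, of the core network, stood at 385 and 322 FPKM at E4.0 and 10.8 and 10.2 at E5.5 (log2 difference -4.94, SE 0.56, limma adjusted p = 2.44e-06). At E6.5 it was at 57.01 and 45.9 FPKM, above both E5.5 libraries. Of the Klf factors, Klf4 stood at 12.3 and 12.3 FPKM at E4.0 and 0 and 0.122 at E5.5 (log2 difference -3.65, SE 0.33), Klf5 at 17.7 and 20.9 FPKM at E4.0 and 0.477 and 1.04 at E5.5 (log2 difference -3.54, SE 0.35), and Klf2 was at 3.22 and 3.33 FPKM at E4.0 and listed at 0 in both E5.5 libraries. Dppa3, which protects the maternal genome from demethylation, was the member not called, with 29.5 and 32.1 FPKM at E4.0 and 22.8 and 3.93 at E5.5 (log2 difference -1.55, SE 0.64, limma adjusted p = 0.0741). Its E5.5 replicates lay far apart, as did those of Tcl1, an Akt co-activator, at 135 and 175 FPKM at E4.0 and 31.1 and 0.149 at E5.5 (log2 difference -4.67, SE 1.36). Tcl1 was not called when 1 library was left out, at log2 differences of -4.49 without E4.0 replicate 2 and -2.27 without E5.5 replicate 2. Tcl1 had a log2 difference of -7.08 without E5.5 replicate 1.

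Prame-like genes and genes of the 2-cell stage had 6 of 12 members past the filter on low values, of which 4 fell and 0 rose. Pramel6, which can share reads with its relatives, stood at 30.3 and 30.7 FPKM at E4.0 and 0.633 and 0 at E5.5 (log2 difference -4.62, SE 0.26). Khdc3, a gene of the oocyte's subcortical complex, stood at 29.6 and 36.3 FPKM at E4.0 and 0.571 and 0.119 at E5.5 (log2 difference -4.67, SE 0.30).

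Genes of the formative state were mostly higher. Of 18 members, 14 rose, 1 fell and 3 were not called, with a median log2 difference of 2.53. Otx2, a homeobox gene that directs exit from the naive state, stood at 9.43 and 8.34 FPKM at E4.0 and 118 and 90.1 at E5.5 (log2 difference 3.40, SE 0.41, limma adjusted p = 4.64e-06). Pou3f1, also known as Oct6, was listed at 0 in both E4.0 libraries and stood at 9.62 and 8.82 FPKM at E5.5 (limma adjusted p = 4.37e-10). Lef1, which carries Wnt signals to DNA, stood at 2.7 and 2.37 FPKM at E4.0 and 39.96 and 56.6 at E5.5 (log2 difference 3.78, SE 0.40). For all these the groups did not overlap. The zinc finger gene Sall2 stood at 0.589 and 0.0153 FPKM at E4.0 and 27.5 and 15.1 at E5.5 (log2 difference 4.08, SE 0.31). The carbonic anhydrase gene Car14 stood at 1.56 and 1.88 FPKM at E4.0 and 91.9 and 33.6 at E5.5 (log2 difference 4.38, SE 0.42). Tead2, a partner of the Hippo effector Yap1, stood at 6.79 and 6.69 FPKM at E4.0 and 66.5 and 51.5 at E5.5 (log2 difference 2.94, SE 0.32). Sox3 and Sox4, of the Sox family of DNA binding factors, were listed at 0 in the E4.0 libraries and reached 2.08 and 1.88 FPKM and 3.17 and 3.53 FPKM. Car14 had log2 differences of 3.67 without E5.5 replicate 1 and 5.10 without E5.5 replicate 2. Lef1 was not called in a fit of 15 groups (limma adjusted p = 0.106).

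Calls in the core that naive and formative cells share depended on single libraries. Of 12 members, 3 rose, 2 fell and 7 were not called, and the median log2 difference was -0.039. Pou5f1 stood at 305 and 215 FPKM at E4.0 and 456 and 255 at E5.5 (log2 difference 0.41, SE 0.59, limma adjusted p = 0.659), and its E4.0 and E5.5 libraries overlapped. Sox2, its partner, was at the limit of a call, at 11.6 and 12.3 FPKM at E4.0 and 4.08 and 7.26 at E5.5 (log2 difference -1.001, SE 0.30, limma adjusted p = 0.0169). Lin28a, which blocks let-7 microRNA processing, stood at 19.4 and 21.5 FPKM at E4.0 and 64.1 and 39.1 at E5.5 (log2 difference 1.26, SE 0.32). Its relative Lin28b, of the list of RNA regulators, started lower and stood at 0.138 and 0.496 FPKM at E4.0 and 9.56 and 7.49 at E5.5 (log2 difference 2.86, SE 0.29, limma adjusted p = 5.41e-07). The zinc finger gene Sall4, at 138 and 152 FPKM and then 127 and 106 FPKM, was not called. Neither was Tdgf1, the Nodal co-receptor gene, at 239 and 249 FPKM and then 172 and 122 FPKM. Dppa5a, for which similar copies exist in the genome so that its value is uncertain, was the most abundant of these, at 4039 and 7295 FPKM at E4.0 and 1211 and 1761 at E5.5 (log2 difference -1.89, SE 0.48, limma adjusted p = 0.00559). The shared genes numbered 2 higher and 1 lower with a pseudocount of 0.1 FPKM, after rescaling, in a fit of only the 4 libraries or with library weights, 1 and 0 in a fit of 15 groups or without E4.0 replicate 2, and 0 and 0 without E5.5 replicate 1. Dppa5a and Sox2 were not called when 1 library was left out, at log2 differences of -1.47 and -0.96 without E4.0 replicate 2 and of -1.62 and -0.65 without E5.5 replicate 1. Lin28a was not called when 1 library was left out, at a log2 difference of 0.91 without E5.5 replicate 1. Dppa5a was not called in a fit of 15 groups (limma adjusted p = 0.257). Sox2 was not called with a pseudocount of 0.1 FPKM (limma adjusted p = 0.261), after quantile normalization (log2 difference -0.92), after rescaling (limma adjusted p = 0.0742), in a fit of only the 4 libraries (limma adjusted p = 0.0839), in a fit of 15 groups (limma adjusted p = 0.302) and with library weights (limma adjusted p = 0.0584).

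RNA regulators, the Lin28 genes included, had 6 of 17 members higher and 2 lower, 47.1% against 22.8% of all genes. The epithelial splicing factors went apart, with Esrp1 at 2.2 and 2.09 FPKM at E4.0 and 17.7 and 19.3 at E5.5 (log2 difference 2.63, SE 0.23, limma adjusted p = 1.34e-07) and Esrp2 at 5.62 and 6.34 FPKM at E4.0 and 2.4 and 1.41 at E5.5 (log2 difference -1.28, SE 0.25). Trim71, a let-7 target, stood at 7.04 and 4.21 FPKM at E4.0 and 15.5 and 11.7 at E5.5 (log2 difference 1.16, SE 0.35). Mbnl2, a splicing factor of differentiated cells, stood at 1.71 and 3.35 FPKM at E4.0 and 0.621 and 0.4 at E5.5 (log2 difference -1.19, SE 0.27). RNA regulators numbered 3 higher and 2 lower in a fit of only the 4 libraries or without E5.5 replicate 1, and 6 and 1 without E4.0 replicate 2. Mbnl2 was not called when 1 library was left out, at a log2 difference of -0.85 without E4.0 replicate 2. Trim71 was not called when 1 library was left out, at log2 differences of 0.85 without E4.0 replicate 2 and 0.98 without E5.5 replicate 1. Esrp2 was not called in a fit of 15 groups (limma adjusted p = 0.0563). Trim71 was not called in a fit of only the 4 libraries (limma adjusted p = 0.0515), in a fit of 15 groups (limma adjusted p = 0.0564) and with library weights (limma adjusted p = 0.125).

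The E4.0 sample held the whole inner cell mass, and primitive endoderm genes were high in it and low in E5.5 epiblast. Of 19 members, 16 fell, 0 rose and 3 were not called, with a median log2 difference of -3.43. Their summed level was 1482 and 916 FPKM at E4.0 and 113 and 63.8 FPKM in E5.5 epiblast. It was 648 and 1112 FPKM in E5.5 visceral endoderm. In bulk samples, fewer cells of a type and less RNA per cell cannot be told apart. The endoderm factor gene Gata4 stood at 8.87 and 11.1 FPKM at E4.0 and 0.152 and 0 at E5.5 (log2 difference -3.35, SE 0.34), and Gata6 at 10.4 and 10.7 FPKM at E4.0 and 0.081 and 0.0578 at E5.5 (log2 difference -3.43, SE 0.40). Sox7, a later factor of this lineage, was listed at 0 in both E3.5 libraries and stood at 61.4 and 74.7 FPKM at E4.0 and 0.158 and 0 at E5.5 (log2 difference -5.997, SE 0.34, limma adjusted p = 5.87e-10). The receptor gene Pdgfra stood at 13.5 and 5.63 FPKM at E4.0 and 0.0191 and 0 at E5.5 (log2 difference -3.28, SE 0.31). The E4.0 replicates were close for the Gata genes and Sox7 but differed for Pdgfra and for basement membrane genes, which were higher in replicate 1. Among the latter the laminin genes Lama1 and Lamb1 stood at 72.2 and 20.6 FPKM at E4.0 and 0.195 and 0 at E5.5 (log2 difference -5.19, SE 0.43) and at 169 and 44.8 FPKM at E4.0 and 11.4 and 5.51 at E5.5 (log2 difference -3.30, SE 0.47). The collagen gene Col4a1 stood at 114 and 23.8 FPKM at E4.0 and 3.64 and 0.775 at E5.5 (log2 difference -4.22, SE 0.51). Col4a1 had log2 differences of -3.11 without E4.0 replicate 1, -5.32 without E4.0 replicate 2, -4.91 without E5.5 replicate 1 and -3.52 without E5.5 replicate 2. Lama1 and Lamb1 had log2 differences of -4.31 and -2.35 without E4.0 replicate 1 and of -6.06 and -4.24 without E4.0 replicate 2.

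Markers of other tissues were low in the E5.5 epiblast libraries. Visceral endoderm genes summed to 1010.02 and 708 FPKM at E4.0, to 184 and 155 FPKM in epiblast and to 6286 and 9154 FPKM in visceral endoderm. Of 17 members 3 rose and 4 fell in epiblast, 41.2% against 22.8% of all genes. Ttr, a thyroxine carrier, stood at 0.176 and 0 FPKM at E4.0 and 1.9 and 3.52 at E5.5 (log2 difference 1.74, SE 0.41, limma adjusted p = 0.00322), against 898 and 1149 FPKM in visceral endoderm. Apoa1, an apolipoprotein, stood at 0.688 and 0 FPKM at E4.0 and 8.03 and 11.5 at E5.5 (log2 difference 3.03, SE 0.77, limma adjusted p = 0.00578), against 1541 and 2574 FPKM in visceral endoderm. Trf, or transferrin, was the third risen member, with a log2 difference of 1.44. Ttr and Apoa1 stayed far under their levels in visceral endoderm, and the part of that tissue in the rises was not tested. Amn, a partner of cubilin, fell most, at 111 and 33.3 FPKM at E4.0 and 1.31 and 1.31 at E5.5 (log2 difference -4.75, SE 0.41). Visceral endoderm genes numbered 6 higher and 3 lower with a pseudocount of 0.1 FPKM, and 1 and 3 in a fit of 15 groups. Amn had log2 differences of -3.89 without E4.0 replicate 1 and -5.60 without E4.0 replicate 2. Apoa1 was not called when 1 library was left out, at a log2 difference of 2.66 without E4.0 replicate 2. Apoa1 and Trf were not called in a fit of 15 groups (limma adjusted p = 0.0531 and 0.222). Ttr was not called with library weights (limma adjusted p = 0.0868).

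Trophectoderm genes summed to 53.1 and 39.5 FPKM at E4.0 and 80.5 and 75.7 FPKM at E5.5. Of 16 members 2 rose and 5 fell, 43.75% against 22.8% of all genes. Cdx2, which defines the lineage, was listed at 0 in both E5.5 libraries. The keratin gene Krt18, shared by simple epithelia, stood at 8.39 and 3.32 FPKM at E4.0 and 56.2 and 59.3 at E5.5 (log2 difference 3.21, SE 0.44). Ascl2, a factor of placental cells, stood at 0.89 and 0 FPKM at E4.0 and 8.59 and 8.52 at E5.5 (log2 difference 2.80, SE 0.30). Maternal genes of blood and decidua summed to at most 3.34 FPKM, and haemoglobin (Hbb-b1), leukocyte (Ptprc) and decidual (Prl8a2) genes were listed at 0 in all 4 libraries. Trophectoderm genes numbered 3 higher and 8 lower with a pseudocount of 0.1 FPKM, and 2 and 3 in a fit of 15 groups.

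Genes of FGF signalling, which drives exit from the naive state, went in both directions, with 6 of 20 higher and 5 lower. Of the ligands, Fgf15 rose with Fgf5, at 0.447 and 0.0434 FPKM at E4.0 and 35.99 and 17.6 at E5.5 (log2 difference 4.42, SE 0.50, limma adjusted p = 2.07e-06). Fgf4, the ligand of the blastocyst, was not called, at 7.29 and 10.9 FPKM and then 6.51 and 7.29 FPKM. Of the receptors, Fgfr2 stood at 4.2 and 6.07 FPKM at E4.0 and 0.26 and 0 at E5.5 (log2 difference -2.43, SE 0.38) and Fgfr3 at 13.6 and 4.58 FPKM at E4.0 and 0.258 and 0 at E5.5 (log2 difference -3.01, SE 0.34), both at most 0.26 FPKM at E5.5. Fgfr1, the receptor of epiblast, was under the limit on size, at 2.29 and 2.12 FPKM at E4.0 and 5.34 and 4.72 at E5.5 (log2 difference 0.91, SE 0.31, limma adjusted p = 0.0332). The feedback inhibitors split, as Spry4 fell, at 51.2 and 55.4 FPKM at E4.0 and 12.8 and 7.29 at E5.5 (log2 difference -2.34, SE 0.50), and Dusp6, a phosphatase of Erk, rose, at 17.5 and 31.4 FPKM at E4.0 and 73.9 and 52.6 at E5.5 (log2 difference 1.37, SE 0.33). FGF genes numbered 2 higher and 4 lower in a fit of 15 groups, and 3 and 5 without E5.5 replicate 1. Dusp6 was not called when 1 library was left out, at log2 differences of 0.97 without E4.0 replicate 1 and 1.13 without E5.5 replicate 1. Fgfr3 had log2 differences of -2.31 without E4.0 replicate 1 and -3.71 without E4.0 replicate 2. Dusp6 was not called in a fit of 15 groups (limma adjusted p = 0.17).

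The LIF pathway, which sustains naive cells through Stat3, had 4 of 13 members lower and 0 higher, 30.8% against 22.8% of all genes. The receptor gene Lifr stood at 23.8 and 19.6 FPKM at E4.0 and 2.36 and 1.03 at E5.5 (log2 difference -3.11, SE 0.31). Its co-receptor gene Il6st stood at 8.14 and 8.23 FPKM at E4.0 and 1.85 and 0.85 at E5.5 (log2 difference -2.001, SE 0.28). Stat3 itself stood at 31.3 and 41.3 FPKM at E4.0 and 2.43 and 2.25 at E5.5 (log2 difference -3.47, SE 0.31, limma adjusted p = 1.4e-07), and its target and inhibitor Socs3 at 30.8 and 15.04 FPKM at E4.0 and 1.25 and 0.688 at E5.5 (log2 difference -3.54, SE 0.47). The fallen genes thus covered receptors, transcription factor and feedback, while the kinase gene Jak1, at 9.37 and 11.2 FPKM and then 5.73 and 5.47 FPKM, was not called. Stat3 was low in E5.5 visceral endoderm as well, at 2.09 and 5.56 FPKM.

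Nodal, a TGF-beta ligand that patterns the epiblast, was not called, at 34.4 and 12.3 FPKM at E4.0 and 24.2 and 8.78 at E5.5 (log2 difference -0.47, SE 0.46, limma adjusted p = 0.494), while its secreted inhibitors fell. Lefty2 stood at 159 and 162 FPKM at E4.0 and 2.63 and 3.16 at E5.5 (log2 difference -5.38, SE 0.79, limma adjusted p = 4.3e-05), and Lefty1 at 58.3 and 13.5 FPKM at E4.0 and 0.863 and 0 at E5.5 (log2 difference -4.42, SE 0.57). Gdf1, a ligand that pairs with Nodal, rose, at 0.478 and 0.232 FPKM at E4.0 and 14.7 and 9.34 at E5.5 (log2 difference 3.24, SE 0.30). Its relative Gdf3 fell, at 45.4 and 47.04 FPKM at E4.0 and 20.3 and 16.7 at E5.5 (log2 difference -1.28, SE 0.26). In all, 2 of 19 members rose and 4 fell, 31.6% against 22.8% of all genes. Of the BMP list 2 of 15 fell and 0 rose, 13.3%, below that background. Bmp4, the ligand that induces germ cells, was one of them, at 37.7 and 49.9 FPKM at E4.0 and 2.03 and 1.08 at E5.5 (log2 difference -4.15, SE 0.41, limma adjusted p = 4.41e-07). Nodal genes numbered 4 higher and 5 lower with a pseudocount of 0.1 FPKM. BMP genes numbered 0 higher and 1 lower without a filter on low values, in a fit of 15 groups, with library weights or without E5.5 replicate 2, and 1 and 1 without E4.0 replicate 1. Lefty1 had log2 differences of -3.40 without E4.0 replicate 1 and -5.44 without E4.0 replicate 2. Gdf3 was not called with a pseudocount of 0.1 FPKM (limma adjusted p = 0.0545) and in a fit of 15 groups (limma adjusted p = 0.295).

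Wnt genes had 6 of 26 members higher and 5 lower, 42.3% against 22.8% of all genes. Porcn, whose enzyme adds the lipid to Wnt proteins, stood at 28.4 and 16.6 FPKM at E4.0 and 0.583 and 0.317 at E5.5 (log2 difference -3.98, SE 0.34). The secreted inhibitor gene Dkk1 stood at 45.1 and 53.3 FPKM at E4.0 and 0.238 and 0 at E5.5 (log2 difference -5.49, SE 0.38). Both were high in E5.5 visceral endoderm, with Porcn at 26.01 and 26.2 FPKM and Dkk1 at 58.8 and 31.7 FPKM. The receptor gene Fzd2 stood at 0.0523 and 0 FPKM at E4.0 and 4.85 and 3.68 at E5.5 (log2 difference 2.35, SE 0.30). Of the nuclear factors, Tcf7 rose with Lef1, at 0.621 and 0.276 FPKM at E4.0 and 3.71 and 6.6 at E5.5 (log2 difference 2.06, SE 0.31). Axin2, a transcriptional target of the pathway, was not called and its libraries overlapped, at 3.004 and 1.38 FPKM and then 0.897 and 2.08 FPKM. Wnt genes numbered 10 higher and 6 lower with a pseudocount of 0.1 FPKM, and 3 and 4 in a fit of 15 groups.

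The Hippo pathway restrains the co-activators Yap1 and Wwtr1, and 8 of 17 members of its list fell and 3 rose. Yap1 itself rose, at a log2 difference of 1.23. That call was lost without E4.0 replicate 2 (log2 difference 1.12) and without E5.5 replicate 1 (log2 difference 0.56). It was also lost in a fit of only the 4 libraries (limma adjusted p = 0.0956). Among the Tead factors, which bind the co-activators, Tead4 fell, at 12.1 and 10.8 FPKM at E4.0 and 0.132 and 0 at E5.5 (log2 difference -3.54, SE 0.38), while Tead2 rose as given above. The Yap1 targets were lower, with Ctgf at 22.8 and 19.997 FPKM at E4.0 and 0.936 and 0.712 at E5.5 (log2 difference -3.62, SE 0.64) and Cyr61 at 135 and 50.8 FPKM at E4.0 and 4.84 and 1.34 at E5.5 (log2 difference -4.50, SE 0.55). Cyr61 had log2 differences of -3.81 without E4.0 replicate 1, -5.20 without E4.0 replicate 2, -5.16 without E5.5 replicate 1 and -3.84 without E5.5 replicate 2.

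Among genes that write DNA methylation, the de novo enzymes rose and their catalytically inactive partner Dnmt3l fell. Dnmt3b stood at 15.9 and 16.2 FPKM at E4.0 and 153 and 193 at E5.5 (log2 difference 3.34, SE 0.39, limma adjusted p = 3.33e-06). Dnmt3a stood at 23.8 and 13.1 FPKM at E4.0 and 97.9 and 101 at E5.5 (log2 difference 2.43, SE 0.40, limma adjusted p = 0.000162). Dnmt3l stood at 484 and 406 FPKM at E4.0 and 71.1 and 138 at E5.5 (log2 difference -2.15, SE 0.53, limma adjusted p = 0.00504), with its E5.5 replicates nearly 2-fold apart. It was at 26.4 and 22.3 FPKM at E3.5 and at 6.45 and 5.85 FPKM at E6.5, so that it was high at E4.0 and partly down by E5.5. The maintenance enzyme gene Dnmt1 stood at 18.6 and 15.95 FPKM at E4.0 and 40.3 and 34.8 at E5.5 (log2 difference 1.08, SE 0.24), near the limit of a call. Its partner Uhrf1, at 53.4 and 75.3 FPKM and then 98.998 and 87.5 FPKM, was not called. In all, 3 of 9 writers rose, 1 fell and 5 were not called. The writers numbered 2 higher and 0 lower without E5.5 replicate 1. Dnmt1 was not called when 1 library was left out, at log2 differences of 0.97 without E4.0 replicate 2 and 0.97 without E5.5 replicate 1. Dnmt3l was not called when 1 library was left out, at a log2 difference of -1.67 without E5.5 replicate 1. Dnmt1 was not called after rescaling (log2 difference 0.99). Dnmt3a was not called in a fit of 15 groups (limma adjusted p = 0.0543). Dnmt3l was not called with a pseudocount of 0.1 FPKM (limma adjusted p = 0.0554).

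Of 11 erasers and imprint protectors, 5 fell and 1 rose, with a median log2 difference of -1.13. Tet2, which oxidises methylated cytosine, stood at 11.6 and 10.7 FPKM at E4.0 and 0.162 and 0.0761 at E5.5 (log2 difference -3.44, SE 0.18, limma adjusted p = 2.99e-10). Tet1, of the same family, was not called and overlapped between stages, at 15.8 and 14.02 FPKM and then 11.1 and 14.98 FPKM. Zfp57, a zinc finger protein that guards imprints, stood at 178 and 179 FPKM at E4.0 and 8.96 and 7.31 at E5.5 (log2 difference -4.30, SE 0.86, limma adjusted p = 0.000905). Zfp445, which also guards imprints, went the opposite way, at 4.91 and 6.1 FPKM at E4.0 and 13.4 and 12.996 at E5.5 (log2 difference 1.13, SE 0.27). Gadd45b, linked to DNA repair and stress, stood at 12.99 and 7.93 FPKM at E4.0 and 1.48 and 2.02 at E5.5 (log2 difference -2.03, SE 0.39). Erasers and imprint protectors numbered 3 higher and 5 lower with a pseudocount of 0.1 FPKM, 1 and 3 in a fit of 15 groups or without E4.0 replicate 1, and 2 and 4 without E5.5 replicate 2. Zfp445 was not called when 1 library was left out, at a log2 difference of 0.999 without E4.0 replicate 1.

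**Figure D3:**
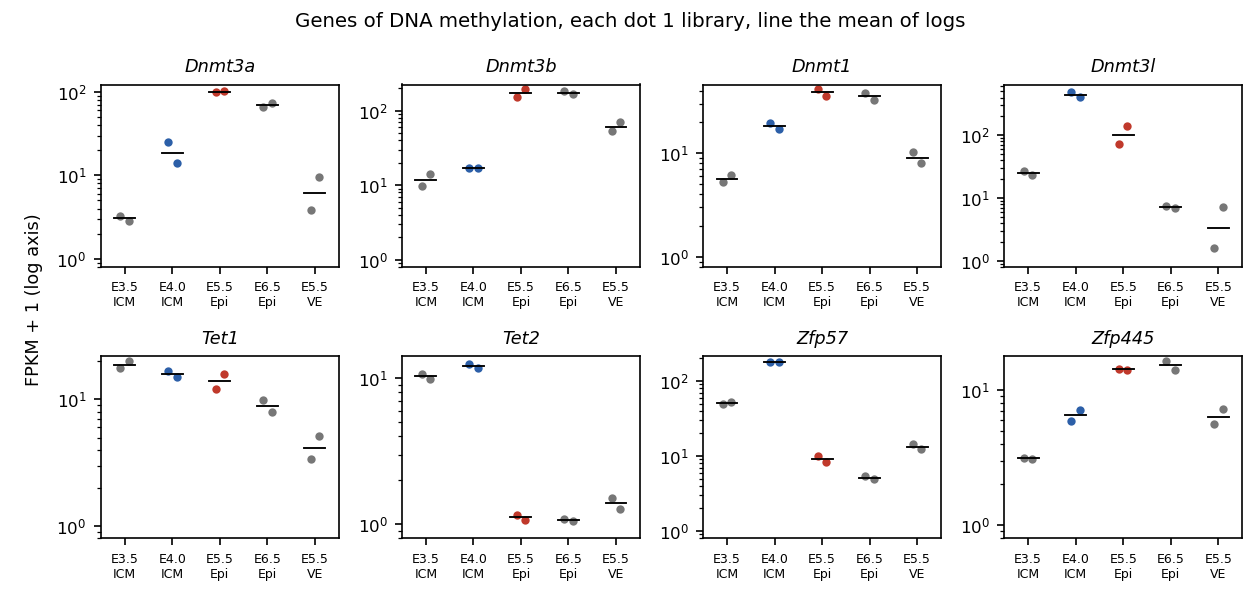
FPKM plus 1 on a log axis for 8 genes that write, erase or guard DNA methylation, in inner cell mass (ICM), epiblast (Epi) and visceral endoderm (VE), with 1 dot per library and a line at the mean of the logs of 2 libraries. Dnmt3a and Dnmt3b stand higher at E5.5 (red) than at E4.0 (blue), Dnmt3l, Tet2 and Zfp57 lower, and the Tet1 libraries of E4.0 and E5.5 overlap.

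Imprinted genes, expressed from 1 parental copy, had 7 of 21 members higher and 1 lower, 38.1% against 22.8% of all genes. The paternally expressed gene Snrpn stood at 27.03 and 35.99 FPKM at E4.0 and 221 and 202 at E5.5 (log2 difference 2.72, SE 0.47, limma adjusted p = 0.000217). Nnat, also paternal, stood at 3.27 and 2.42 FPKM at E4.0 and 58.5 and 35.1 at E5.5 (log2 difference 3.60, SE 0.35). Mest, another paternal gene, stood at 10.5 and 7.4 FPKM at E4.0 and 99.6 and 51.7 at E5.5 (log2 difference 2.89, SE 0.45). Meg3, a maternal non-coding RNA, stood at 0.76 and 1.3 FPKM at E4.0 and 8.18 and 9.48 at E5.5 (log2 difference 2.28, SE 0.43), so that risen genes came from both parental classes. The fallen gene was the amino acid transporter Slc38a4, at 22.2 and 29.3 FPKM at E4.0 and 6.29 and 4.57 at E5.5 (log2 difference -2.06, SE 0.41). The 5 tested genes of X inactivation gave 0 calls with limma, and 1 had an unadjusted p under 0.05. Tsix stood at 31.2 and 2.28 FPKM at E4.0 and 3.17 and 1.19 at E5.5. As the E4.0 replicates lay this far apart in Tsix, and in Xist as given above, the 0 calls say little about either gene. Imprinted genes numbered 9 higher and 3 lower after rescaling, and 6 and 2 without E4.0 replicate 2. X inactivation genes numbered 1 higher and 0 lower without E4.0 replicate 1 or without E5.5 replicate 1, and 0 and 1 without E4.0 replicate 2.

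Polycomb genes, which silence developmental genes through histone marks, had 2 of 22 members higher and 6 lower, 36.4% against 22.8% of all genes. Of the Cbx readers, Cbx2 stood at 6.33 and 3.49 FPKM at E4.0 and 21.4 and 13.9 at E5.5 (log2 difference 1.67, SE 0.28) and Cbx6 at 1.22 and 0.714 FPKM at E4.0 and 5.53 and 3.17 at E5.5 (log2 difference 1.42, SE 0.22). Cbx7, the reader of naive cells, was not called and overlapped, at 19.6 and 9.92 FPKM and then 13.8 and 14.04 FPKM. Bmi1, a subunit of Polycomb complex 1, stood at 4.33 and 7.83 FPKM at E4.0 and 1.39 and 0.356 at E5.5 (log2 difference -1.93, SE 0.35). The methyltransferase gene Ezh2 was not called, at 17.4 and 23.7 FPKM and then 38.1 and 34.03 FPKM, while its partner Eed stood at 84.4 and 163 FPKM at E4.0 and 44.7 and 47.03 at E5.5 (log2 difference -1.34, SE 0.34). Polycomb genes numbered 4 higher and 2 lower without E4.0 replicate 2. Eed was not called when 1 library was left out, at a log2 difference of -0.87 without E4.0 replicate 2.

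Germline genes, which act in meiosis or guard germ cells from transposons, are known to be silenced in somatic cells by DNA methylation and by a Polycomb complex that reads E-boxes. Of 18 tested members, 7 rose, 3 fell and 8 were not called. The RNA helicase gene Ddx4, also known as Vasa, stood at 1.29 and 0 FPKM at E4.0 and 12.96 and 12.4 at E5.5 (log2 difference 3.18, SE 0.37, limma adjusted p = 3.04e-06). Mael, of the piRNA pathway, was listed at 0 in both E4.0 libraries and stood at 11.4 and 7.5 FPKM at E5.5 (limma adjusted p = 1.76e-05). Slc25a31, a mitochondrial ADP/ATP carrier of testis, stood at 0.282 and 0 FPKM at E4.0 and 5.9 and 10.1 at E5.5 (log2 difference 2.95, SE 0.40). Hormad1, which monitors meiotic pairing, stood at 6.58 and 0.959 FPKM at E4.0 and 14.2 and 19.2 at E5.5 (log2 difference 2.19, SE 0.42). The levels were modest, under 20 FPKM in both E5.5 libraries for these genes. Sycp3, of the synaptonemal complex, stood at 2.54 and 3.35 FPKM at E4.0 and 21.4 and 10.6 at E5.5 (log2 difference 2.04, SE 0.67). Mov10l1, a helicase of piRNA formation, and Taf7l, a testis relative of a general transcription factor, reached 1.81 and 2.28 and 1.33 and 1.42 FPKM. At E6.5 Ddx4 was at 5.66 and 3.65, Hormad1 at 1.02 and 1.02 and Slc25a31 at 1.84 and 1.66 FPKM, all below their E5.5 levels. The fallen members Mageb16, Stk31 and Rpl10l had log2 differences of -1.27, -1.17 and -1.27, and the last of them is uncertain because it can share reads with Rpl10. Germline genes numbered 8 higher and 1 lower with a pseudocount of 0.1 FPKM, 6 and 1 without E4.0 replicate 2, and 6 and 0 without E5.5 replicate 1. Ddx4 and Hormad1 had log2 differences of 3.78 and 3.16 without E4.0 replicate 1 and of 2.58 and 1.21 without E4.0 replicate 2. Mageb16, Rpl10l and Stk31 were not called when 1 library was left out, at log2 differences of -0.92, -0.94 and -1.11 without E4.0 replicate 2 and of -1.01, -0.79 and -0.90 without E5.5 replicate 1. Sycp3 was not called when 1 library was left out, at log2 differences of 1.89 without E4.0 replicate 1, 2.19 without E4.0 replicate 2 and 1.56 without E5.5 replicate 1. Rpl10l was not called with a pseudocount of 0.1 FPKM (limma adjusted p = 0.0619) and in a fit of 15 groups (limma adjusted p = 0.475). Stk31 was not called with a pseudocount of 0.1 FPKM (limma adjusted p = 0.0934). Sycp3 was not called without a filter on low values (limma adjusted p = 0.0682) and in a fit of 15 groups (limma adjusted p = 0.0645).

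The promoters of the risen genes are shown because each holds CACGTG, the E-box palindrome, between 250 bases before and 50 after a RefSeq start site (build GRCm38.p6). Of the list, 20 genes had a RefSeq promoter and 12 of these held the hexamer, 60.0%, against 8.09% of 27025 symbols with a promoter. It was in 7 of 7 risen members, 1 of 3 fallen members and 3 of 8 members not called. Each line gives 80 bases of such a promoter, 5′ to 3′ on the strand of the gene, with every CACGTG in capitals.
Ddx4, chr13:112652311-112652390, minus strand: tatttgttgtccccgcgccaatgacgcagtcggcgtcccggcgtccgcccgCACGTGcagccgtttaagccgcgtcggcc
Hormad1, chr3:95559597-95559676, plus strand: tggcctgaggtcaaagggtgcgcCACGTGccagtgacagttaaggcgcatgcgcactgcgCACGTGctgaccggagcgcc
Mael, chr1:166238915-166238994, minus strand: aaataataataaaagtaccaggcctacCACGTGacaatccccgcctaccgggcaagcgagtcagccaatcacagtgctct
Mov10l1, chr15:88982744-88982823, plus strand: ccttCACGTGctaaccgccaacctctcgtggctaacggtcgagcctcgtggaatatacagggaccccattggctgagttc
Slc25a31, chr3:40708741-40708820, plus strand: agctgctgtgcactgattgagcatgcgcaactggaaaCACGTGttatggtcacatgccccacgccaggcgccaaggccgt
Sycp3, chr10:88459507-88459586, plus strand: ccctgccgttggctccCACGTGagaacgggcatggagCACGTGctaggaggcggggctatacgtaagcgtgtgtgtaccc
Taf7l, chrX:134476497-134476576, minus strand: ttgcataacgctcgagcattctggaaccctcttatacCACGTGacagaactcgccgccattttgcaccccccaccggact
The match describes letters and not a bound site, and the list was chosen with results of these data known, so the shares are no test.

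Antigen processing genes, in a list that also holds Ifitm genes, had 8 of 15 members higher and 1 lower, with a median log2 difference of 1.32. Beside Psmb8, the immunoproteasome subunit gene Psmb10 stood at 4.2 and 4.44 FPKM at E4.0 and 79.4 and 129.7 at E5.5 (log2 difference 4.27, SE 0.31, limma adjusted p = 1.36e-08). The proteasome activator gene Psme1 stood at 34.4 and 36.3 FPKM at E4.0 and 152 and 149 at E5.5 (log2 difference 2.06, SE 0.33). Tapbp, which loads peptides on MHC class I, stood at 8.38 and 4.68 FPKM at E4.0 and 25.6 and 31.5 at E5.5 (log2 difference 2.01, SE 0.26). Irf1, an interferon regulatory factor, stood at 5.09 and 5.29 FPKM at E4.0 and 41.98 and 47.1 at E5.5 (log2 difference 2.88, SE 0.31, limma adjusted p = 1.41e-06). The stages did not overlap in these. B2m, the light chain of MHC class I, went the other way, at 44.9 and 77.97 FPKM at E4.0 and 15.3 and 3.67 at E5.5 (log2 difference -2.79, SE 0.46, limma adjusted p = 0.000166). In E6.5 epiblast Psmb10 was at 32.6 and 47.3 FPKM and Irf1 at 27.5 and 25.9 FPKM. B2m had log2 differences of -3.69 without E5.5 replicate 1 and -1.89 without E5.5 replicate 2.

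**Figure D4:**
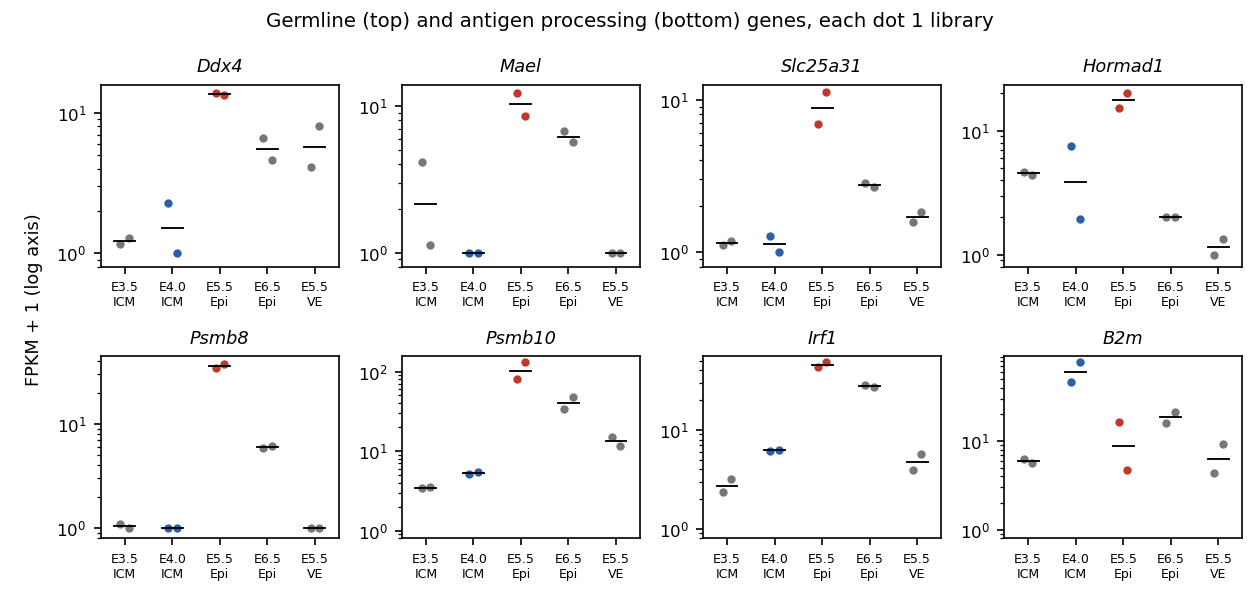
FPKM plus 1 on a log axis for 4 germline genes (top) and 4 genes of antigen processing (bottom) in inner cell mass (ICM), epiblast (Epi) and visceral endoderm (VE), with 1 dot per library and a line at the mean of the logs of 2 libraries. In E5.5 epiblast (red) 7 genes stand above both E4.0 libraries (blue) and B2m stands below.

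Glycolytic genes were broadly higher, with 14 of 23 members risen, 2 fallen and 7 not called, and a median log2 difference of 1.59. Summed over the list, levels were 2224 and 1874 FPKM at E4.0 and 8939 and 7510.3 FPKM at E5.5. Aldolase (Aldoa), which splits the sugar, stood at 486 and 277 FPKM at E4.0 and 1727 and 1867 at E5.5 (log2 difference 2.29, SE 0.29). Triosephosphate isomerase (Tpi1) stood at 127 and 102 FPKM at E4.0 and 702 and 648 at E5.5 (log2 difference 2.56, SE 0.26, limma adjusted p = 5.93e-07). Pyruvate kinase (Pkm), the last step, stood at 361 and 338 FPKM at E4.0 and 1165 and 1094 at E5.5 (log2 difference 1.69, SE 0.34). Both E5.5 libraries were above both E4.0 libraries for these 3. Ldha, which turns pyruvate into lactate, stood at 218 and 200.02 FPKM at E4.0 and 1858 and 1747 at E5.5 (log2 difference 3.10, SE 0.32, limma adjusted p = 7.59e-07). Bnip3, a mitophagy receptor and known hypoxia target, stood at 12.9 and 9.24 FPKM at E4.0 and 263 and 118 at E5.5 (log2 difference 3.89, SE 0.40, limma adjusted p = 7.17e-07). Pdk1, which holds pyruvate back from the mitochondria, stood at 4.21 and 7.83 FPKM at E4.0 and 30.2 and 17.3 at E5.5 (log2 difference 1.82, SE 0.36). The phosphofructokinase genes split, as Pfkl rose, at 82.4 and 62.4 FPKM at E4.0 and 213 and 187 at E5.5 (log2 difference 1.46, SE 0.39), and Pfkp fell, at 62.7 and 34.8 FPKM at E4.0 and 5.7 and 5.2 at E5.5 (log2 difference -2.89, SE 0.46). The glucose transporter genes split too, with Slc2a1 at 81.5 and 35.6 FPKM at E4.0 and 288 and 79.8 at E5.5 (log2 difference 1.48, SE 0.47) and Slc2a3 at 155 and 76.5 FPKM at E4.0 and 64.01 and 7.64 at E5.5 (log2 difference -2.21, SE 0.62), and the Slc2a1 libraries of the stages overlapped. Gapdh, Eno1 and Pgk1 have near-identical copies in the genome, and their values are uncertain. In E5.5 visceral endoderm Ldha was at 247 and 578 FPKM, lower than in epiblast (log2 difference of epiblast minus visceral endoderm 2.25, limma adjusted p = 1.89e-05). Glycolytic genes numbered 15 higher and 1 lower without E4.0 replicate 1, and 16 and 1 without E5.5 replicate 2. Pfkl and Slc2a1 were not called when 1 library was left out, at log2 differences of 1.27 and 0.89 without E4.0 replicate 2 and of 1.37 and 0.56 without E5.5 replicate 1. Slc2a1 had log2 differences of 2.06 without E4.0 replicate 1 and 2.39 without E5.5 replicate 2. Slc2a3 was not called when 1 library was left out, at log2 differences of -1.71 without E4.0 replicate 1 and -0.76 without E5.5 replicate 2. Slc2a3 had a log2 difference of -3.67 without E5.5 replicate 1. Pdk1 was not called in a fit of 15 groups (limma adjusted p = 0.061). Slc2a1 was not called without a filter on low values (limma adjusted p = 0.0575), in a fit of only the 4 libraries (limma adjusted p = 0.105) and in a fit of 15 groups (limma adjusted p = 0.122). Slc2a3 was not called in a fit of only the 4 libraries (limma adjusted p = 0.0773).

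ACGTG, the core of the hypoxia response element, was found on either strand in the promoters of 14 of 22 matched glycolytic genes, 63.6%, against 21.8% of all symbols, and these letters also lie inside CACGTG. They were in 8 of 14 risen members and 6 of 7 members not called, so the share was not higher among the risen.

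None of 24 respiratory chain genes was called with limma, 1 had an unadjusted p under 0.05, and the median log2 difference was -0.0011. That 1 gene was Cox5a, of complex IV, at a log2 difference of -0.57 (limma adjusted p = 0.0372). The ATP synthase gene Atp5b stood at 1072 and 1174 FPKM and then 1417 and 1197 FPKM. The complex IV gene Cox4i1 stood at 1158 and 1203 FPKM and then 1270.4 and 832 FPKM, with overlap. Genes of one-carbon metabolism had 2 of 20 members higher and 3 lower, 25%, close to the background. Tdh, the threonine dehydrogenase on which naive mouse cells depend, stood at 151 and 215 FPKM at E4.0 and 10.1 and 14.7 at E5.5 (log2 difference -3.78, SE 0.42, limma adjusted p = 1.65e-06). One-carbon genes numbered 1 higher and 4 lower without E4.0 replicate 1, and 0 and 3 without E5.5 replicate 1.

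Genes of sterol and fatty acid synthesis had 8 of 19 members higher and 1 lower, with a median log2 difference of 0.85. Fdps, which makes farnesyl diphosphate, stood at 6.88 and 10.05 FPKM at E4.0 and 66.6 and 27.8 at E5.5 (log2 difference 2.24, SE 0.45). The desaturase gene Scd2 stood at 12.8 and 6.76 FPKM at E4.0 and 80.5 and 30.4 at E5.5 (log2 difference 2.29, SE 0.45). Dhcr7, the last step to cholesterol, stood at 3.36 and 1.81 FPKM at E4.0 and 18.8 and 9.62 at E5.5 (log2 difference 2.05, SE 0.38). E5.5 replicate 1 was the higher for each of these. Sterol and fatty acid genes numbered 9 higher and 0 lower without E4.0 replicate 1 or without E5.5 replicate 2, and 5 and 1 without E4.0 replicate 2 or without E5.5 replicate 1. Fdps and Scd2 had log2 differences of 1.63 and 1.60 without E5.5 replicate 1 and of 2.86 and 2.98 without E5.5 replicate 2.

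Genes of the integrated stress response, which Atf4 directs when amino acids run short or proteins misfold, were high at E4.0, and 8 of 15 fell while 1 rose. Asns, asparagine synthetase, stood at 588 and 851 FPKM at E4.0 and 79.1 and 115 at E5.5 (log2 difference -2.88, SE 0.58, limma adjusted p = 0.00101). Atf4 itself stood at 259 and 401 FPKM at E4.0 and 117 and 124 at E5.5 (log2 difference -1.41, SE 0.26). Ddit3, also known as Chop, stood at 40.8 and 35.3 FPKM at E4.0 and 1.44 and 2.21 at E5.5 (log2 difference -3.80, SE 0.26, limma adjusted p = 6.03e-09). Both E5.5 libraries were below both E4.0 libraries in each. Chac1, which degrades glutathione, stood at 49.9 and 118 FPKM at E4.0 and 10.01 and 16.9 at E5.5 (log2 difference -2.47, SE 0.37). Nupr1, a stress-induced chromatin protein gene, stood at 66.9 and 49.3 FPKM at E4.0 and 5.11 and 16.1 at E5.5 (log2 difference -2.52, SE 0.39). E3.5 inner cell mass, prepared like E4.0, had Ddit3 at 5.07 and 4.08, Chac1 at 0.366 and 0.52 and Nupr1 at 8.5 and 8.81 FPKM, all below both E4.0 libraries. The part of preparation in the E4.0 levels was not tested. Epiblast of embryos flushed from superovulated mothers and cultured in serum for 4 days had Ddit3 at 1.37 and 1.36 FPKM and Asns at 54.6 and 67.2 FPKM, in a table made separately. Stress response genes numbered 0 higher and 8 lower without E4.0 replicate 2, and 0 and 7 without E5.5 replicate 1. Chac1 had log2 differences of -3.08 without E4.0 replicate 1 and -1.86 without E4.0 replicate 2. Nupr1 had log2 differences of -1.78 without E5.5 replicate 1 and -3.26 without E5.5 replicate 2. Chac1 was not called in a fit of 15 groups (limma adjusted p = 0.06).

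Promoters of 3 fallen genes are shown for TGATGNAA, letters that mark sites of Atf4 with its partners. Searched on both strands, they were found in 6 of 16 matched genes of the list, 37.5%, against 4.51% of all symbols. They were in 4 of 8 fallen members and 0 of 4 matched members not called. Fgf21 and Slc7a11, under the filter on low values, also held them. The fallen Trib3, which held them and is not shown, went from a log2 difference of -1.13 to -0.44 without E5.5 replicate 1. The list was drawn up as genes of the response that Atf4 directs, with results of these data known, so the shares are no test. The match describes letters and not a bound site. Each line gives 80 bases of the promoter, 5′ to 3′ on the strand of the gene (build GRCm38.p6), with the match or its reverse complement in capitals.
Asns, chr6:7693210-7693289, minus strand: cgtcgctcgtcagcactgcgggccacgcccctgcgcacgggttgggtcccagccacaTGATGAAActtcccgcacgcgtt
Chac1, chr2:119351013-119351092, plus strand: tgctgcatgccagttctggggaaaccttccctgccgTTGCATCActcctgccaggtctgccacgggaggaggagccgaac
Nupr1, chr7:126625537-126625616, minus strand: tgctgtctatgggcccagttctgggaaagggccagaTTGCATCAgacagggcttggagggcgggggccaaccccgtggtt

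Immediate early genes, which answer growth factors and handling within minutes, had 8 of 14 members lower and 0 higher, heat shock genes included. Egr1 stood at 47.6 and 48.3 FPKM at E4.0 and 0.211 and 0.0603 at E5.5 (log2 difference -5.43, SE 0.33, limma adjusted p = 1.44e-09). Atf3 stood at 20.7 and 45.4 FPKM at E4.0 and 0.137 and 0 at E5.5 (log2 difference -4.90, SE 0.29, limma adjusted p = 1.28e-09). Fos was at 28.6 and 20.6 FPKM at E4.0 and listed at 0 in both E5.5 libraries (limma adjusted p = 1.82e-05). All 3 code for transcription factors induced within the hour. Junb stood at 26.3 and 16.7 FPKM at E4.0 and 1.03 and 1.29 at E5.5 (log2 difference -3.35, SE 0.30), and the small heat shock gene Hspb1 at 388 and 364 FPKM at E4.0 and 38.6 and 55.4 at E5.5 (log2 difference -2.996, SE 0.39). In E3.5 inner cell mass, prepared like E4.0, Egr1 was at 0.516 and 0.673, Atf3 at 0.393 and 0 and Hspb1 at 22.96 and 28.999 FPKM, so that the high levels were seen at E4.0 and not at E3.5. The part of handling in the E4.0 levels was not tested.

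Of 26 epithelial genes 12 rose, 0 fell and 14 were not called, with a median log2 difference of 0.96. Beside Cldn6, the apical polarity gene Crb3 stood at 2.45 and 1.24 FPKM at E4.0 and 27.6 and 14.5 at E5.5 (log2 difference 2.92, SE 0.32, limma adjusted p = 1.55e-06). Slc9a3r1, a scaffold under the apical membrane, stood at 41.2 and 42.5 FPKM at E4.0 and 149 and 119.6 at E5.5 (log2 difference 1.65, SE 0.28). The adhesion gene Epcam stood at 29.3 and 45.5 FPKM at E4.0 and 136 and 83.8 at E5.5 (log2 difference 1.52, SE 0.38). E-cadherin (Cdh1), already present at E4.0, was nearer the limit, at 42.1 and 26.6 FPKM at E4.0 and 114 and 48.4 at E5.5 (log2 difference 1.13, SE 0.38). The list summed to 1101 FPKM in E5.5 replicate 1 and 618 in replicate 2, against 297 and 237 at E4.0. Epithelial genes numbered 14 higher and 1 lower without E4.0 replicate 1, and 6 and 1 without E5.5 replicate 1. Cdh1 was not called when 1 library was left out, at log2 differences of 0.81 without E4.0 replicate 2 and 0.52 without E5.5 replicate 1. Cdh1 had a log2 difference of 1.74 without E5.5 replicate 2. Epcam was not called when 1 library was left out, at log2 differences of 1.21 without E4.0 replicate 1 and 1.18 without E5.5 replicate 1. Cdh1 was not called without a filter on low values (limma adjusted p = 0.0612), after rescaling (limma adjusted p = 0.0619), in a fit of only the 4 libraries (limma adjusted p = 0.0882), in a fit of 15 groups (limma adjusted p = 0.168) and with library weights (limma adjusted p = 0.141). Epcam was not called with library weights (limma adjusted p = 0.0563).

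Matrix and integrin genes had 6 of 14 members lower and 1 higher. Fibronectin (Fn1) stood at 56.02 and 42.5 FPKM at E4.0 and 6.32 and 3.71 at E5.5 (log2 difference -3.08, SE 0.32). The integrin subunit gene Itgav stood at 2.93 and 6.1 FPKM at E4.0 and 1.04 and 0.55 at E5.5 (log2 difference -1.57, SE 0.31). Itga3, of a laminin receptor, was the risen member, at 1.39 and 2.23 FPKM at E4.0 and 7.06 and 5.45 at E5.5 (log2 difference 1.38, SE 0.26). Lysosomal and endocytic genes had 10 of 19 members lower and 1 higher, with a median log2 difference of -1.37. The protease gene Ctsl, or cathepsin L, stood at 446 and 531 FPKM at E4.0 and 103 and 45.5 at E5.5 (log2 difference -2.81, SE 0.34). The membrane protein gene Cd63 stood at 128 and 171 FPKM at E4.0 and 15.3 and 11.6 at E5.5 (log2 difference -3.38, SE 0.25). Visceral endoderm, a tissue of strong endocytosis, had Ctsl at 516 and 930.5 FPKM and Cd63 at 99.9 and 123 FPKM, far above epiblast. The related lysosomal regulators went apart, with Tfeb at 9.93 and 6.8 FPKM at E4.0 and 0.585 and 0 at E5.5 (log2 difference -2.87, SE 0.29) and Tfe3 at 21.9 and 16.9 FPKM at E4.0 and 66.01 and 64.3 at E5.5 (log2 difference 1.71, SE 0.28). Matrix and integrin genes numbered 1 higher and 2 lower with a filter of 5 FPKM, and 1 and 3 without E5.5 replicate 2.

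Apoptosis genes had 7 of 17 members higher and 0 lower. Bcl2l11, also known as Bim, which triggers mitochondrial death, stood at 0.587 and 0.299 FPKM at E4.0 and 11.3 and 8.83 at E5.5 (log2 difference 2.94, SE 0.22, limma adjusted p = 1.62e-08). The pore former gene Bak1 stood at 0.398 and 0.116 FPKM at E4.0 and 3.84 and 3.89 at E5.5 (log2 difference 1.96, SE 0.41), and its relative Bax at 171 and 91.1 FPKM at E4.0 and 319 and 361 at E5.5 (log2 difference 1.43, SE 0.34). All these promote cell death. Trp53 was not called, at 132 and 131 FPKM and then 198 and 230.3 FPKM. Apoptosis genes numbered 4 higher and 0 lower in a fit of only the 4 libraries or without E5.5 replicate 1. Bax was not called when 1 library was left out, at a log2 difference of 0.98 without E4.0 replicate 2.

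Of the cell cycle list 4 of 19 rose and 2 fell, 31.6% against 22.8% of all genes. The G1 cyclin genes went apart, with Ccnd1 at 6.36 and 3.24 FPKM at E4.0 and 31.6 and 24.1 at E5.5 (log2 difference 2.35, SE 0.33) and Ccnd2 at 1.96 and 2.13 FPKM at E4.0 and 0.566 and 0.154 at E5.5 (log2 difference -1.18, SE 0.23). Within the Myc family, Myc fell, at 104 and 96.6 FPKM at E4.0 and 46.7 and 30.7 at E5.5 (log2 difference -1.38, SE 0.43), and Mycl1 rose, at 2.34 and 2.22 FPKM at E4.0 and 12.7 and 8.75 at E5.5 (log2 difference 1.82, SE 0.32). Mycn was not called and overlapped, at 57.9 and 68.7 FPKM and then 77.2 and 51.8 FPKM. Cell cycle genes numbered 4 higher and 0 lower in a fit of 15 groups, 6 and 1 without E4.0 replicate 2, and 3 and 0 without E5.5 replicate 2. Ccnd2 was not called when 1 library was left out, at a log2 difference of -0.96 without E5.5 replicate 2. Myc was not called when 1 library was left out, at log2 differences of -1.33 without E4.0 replicate 1, -1.43 without E4.0 replicate 2 and -1.08 without E5.5 replicate 2. Ccnd2 was not called in a fit of 15 groups (limma adjusted p = 0.17). Myc was not called with a pseudocount of 0.1 FPKM (limma adjusted p = 0.103) and after rescaling (limma adjusted p = 0.0623).

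**Figure D5:**
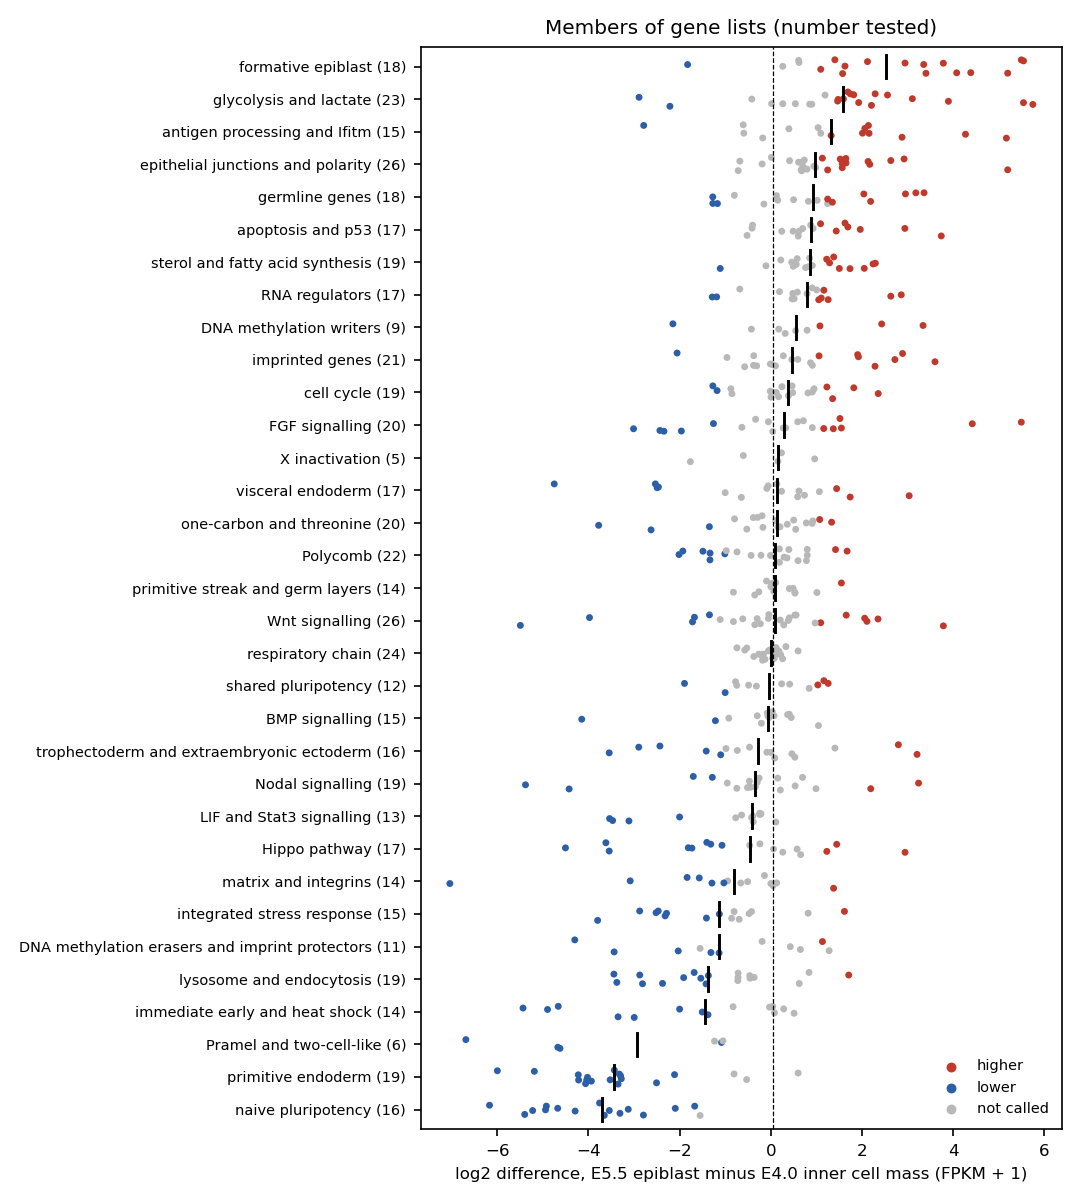
Each dot is a tested member of a gene list, placed by its log2 difference of E5.5 epiblast minus E4.0 inner cell mass on FPKM plus 1 (horizontal axis), red where called higher, blue where called lower and grey where not called. Black bars are list medians, which run from -3.70 for naive genes to 2.53 for formative genes, the dashed line is the median of all tested genes, 0.049, and numbers of tested members stand in brackets.

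Genes of the primitive streak, which marks the start of gastrulation, were low in E5.5 epiblast. Of 14 tested, 1 rose and 0 fell, and with a pseudocount of 0.1 FPKM, at which 3592 of all 12874 genes were called, the numbers were higher. The risen gene was Fgf8, a growth factor, at 0 and 0.346 FPKM at E4.0 and 2.4 and 2.38 at E5.5 (log2 difference 1.55, SE 0.30). Brachyury (symbol T) was at 0.0657 and 0 FPKM at E5.5 and 4.01 and 6.22 FPKM at E6.5. The homeobox gene Mixl1 was at 0.174 and 0.251 FPKM at E5.5 and 38.9 and 40.7 FPKM at E6.5. Streak genes numbered 5 higher and 3 lower with a pseudocount of 0.1 FPKM, 3 and 1 after rescaling, 0 and 0 in a fit of 15 groups, and 2 and 0 without E5.5 replicate 1. Fgf8 was not called in a fit of 15 groups (limma adjusted p = 0.186).

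Epiblast and visceral endoderm of E5.5 were prepared alike, and their difference is also the difference between their changes from the common E4.0 sample. Of the tested genes 41.6% were called, 3904 higher and 1458 lower in epiblast. This split depended on scaling, with 2510 higher and 2329 lower after quantile normalization, which moved the median log2 difference of all genes from 0.408 to 0.058, and 3513 and 2636 after rescaling of each library to 1 total. Pim2 separated the tissues, at 706 and 715 FPKM in epiblast and 3.84 and 9.42 FPKM in visceral endoderm (log2 difference 6.65, limma adjusted p = 7.32e-08). Psmb8, Mt3 and Tmem54, high in E5.5 epiblast, were listed at 0 in both visceral endoderm libraries. Srgn went the other way, at 342 and 774 FPKM in visceral endoderm against 1.97 and 4.23 FPKM in epiblast (log2 difference -7.03, limma adjusted p = 1.75e-08). Cldn6 and Fgf5 were not called between the tissues, with visceral endoderm at 377 and 486 FPKM and 21.3 and 50.5 FPKM (limma adjusted p = 0.152 and 0.524). Pou5f1 was at 0.277 and 0.49 FPKM there, and the part of epiblast RNA in the Fgf5 level was not tested. Some falls were common to both tissues, as visceral endoderm had Pramel7 at 0.133 and 0 FPKM and Ube2l6 at 1.15 and 2.38 FPKM. The cultured epiblast had Pim2 at 483 and 588 FPKM and Fgf5 at 82.9 and 55.4 FPKM and listed Srgn at 0 in both libraries, given as levels without a test.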

How the data were processed

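The authors deposited FPKM tables made with TopHat2 2.0.11 and Cufflinks 2.0.2 on mm9, per the submitters' processing notes. Values at or below 1e-06 were set to 0, and date-like or repeated symbols were left out. Libraries were grouped by their labels. Genes reaching 1 FPKM in 2 or more of the 22 in vivo libraries were tested as log2(FPKM+1) with limma 3.58.1 (trend, 11 groups of 2 libraries, R 4.3.3), and p-values were adjusted by Benjamini-Hochberg over all 12874 genes. The script was tested on simulated data. Alternatives covered the pseudocount, filter, scaling, groups fitted, library weights, replicate block and each library left out. Cultured epiblast, in a table normalized separately, was not tested. Promoters came from RefSeq (GRCm38.p6), whose coordinates are not those of mm9.

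The members and lists were chosen with earlier results of these data known. Named were the 10 largest called rises and falls where the higher stage averaged 10 FPKM or more and the stages did not overlap, passing over unnamed and pseudogene symbols, 6 markers, up to 8 members per list by adjusted p, and uncalled members. Outside this rule, and chosen after their values were seen, were Cdh1, Col4a1, Dusp6, Gata4, Gata6, Klf2, Klf4, Klf5, Lamb1, Nanog, Otx2, Pdk1, Pfkl, Pfkp, Pkm, Slc2a1, Slc2a3, Sox3, Sycp3 and Tcl1. Some members that the rule covers are not reported here.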

Additional observations from a re-analysis of the deposited data

Results flagged for a closer look

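Pim2 differed between the 2 tissues of E5.5 in its change from E4.0, by 6.65 on the log2 scale (epiblast minus visceral endoderm, limma adjusted p = 7.32e-08). It went from 25.6 and 16.9 FPKM at E4.0 to 706 and 715 FPKM in epiblast and to 3.84 and 9.42 FPKM in visceral endoderm, so that both libraries of epiblast were above, and both of visceral endoderm below, those of E4.0.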

How the results depend on the processing

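From E4.0 to E5.5 the number of called genes ran from 2338 with a filter of 5 FPKM to 3707 after rescaling each library to a total of 1000000, against 2931. Rescaling also raised the number of genes tested from 12874 to 14671 and changed what the pseudocount weighs. The number was between 2487 and 2977 with 1 library left out, the lowest without E4.0 replicate 2. The share of calls that were higher was 40.9% without E5.5 replicate 1 and 57.8% without E5.5 replicate 2, against 49.1%. Between epiblast and visceral endoderm the number ran from 4599 to 6541, and from 4896 to 5538 with 1 library left out. No named call reversed under the alternatives run. Named genes that were not called could change sign, as Axin2 did, from -0.35 to 0.025 without E4.0 replicate 1. Of 277 calls among all list members and other named genes, some of them not reported here, 49 ended without E4.0 replicate 2 and 43 without E5.5 replicate 1. In the fit of 15 groups, which takes in the cultured samples, 45 ended, and 26 ended with only the 4 libraries fitted. Same-numbered libraries did not deviate together (r = 0.072 over genes, 2 pairs). With 1 difference per tissue, this cannot tell whether they shared a litter or batch. With the replicate block 2933 genes were called, 2916 of them shared, and 5366 between epiblast and visceral endoderm, and 0 of the 277 calls ended. The unknown depth and 2 libraries a group limit what low genes can show.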

Other observations

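Tfpi, F3, Pros1 and Plaur fell from E4.0 to E5.5 epiblast. These 4 genes were chosen after their values were seen, and no list of their functions was tested. Tfpi, an inhibitor of the clotting cascade, stood at 127 and 169 FPKM at E4.0 and 4.87 and 3.5 at E5.5 (log2 difference -4.84, SE 0.30). F3, or tissue factor, which starts the cascade, stood at 42.6 and 41.9 FPKM at E4.0 and 1.45 and 0.105 at E5.5 (log2 difference -4.72, SE 0.32). Pros1, or protein S, stood at 76.5 and 127 FPKM at E4.0 and 0.948 and 0.282 at E5.5 (log2 difference -5.98, SE 0.32), and Plaur, the urokinase receptor gene, at 80.4 and 54.95 FPKM at E4.0 and 0.912 and 0.298 at E5.5 (log2 difference -5.42, SE 0.31). In E5.5 visceral endoderm the levels were 46.1 and 53.3 FPKM for Tfpi, 2.5 and 2.29 FPKM for F3 and 2.24 and 2.64 FPKM for Pros1, while Plaur was listed at 0 in both libraries.

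Some genes outside the lists stood higher at E5.5 than in E4.0 inner cell mass and in E6.5 epiblast, as Psmb8 and Mt3 did, and they were chosen for that pattern, so no test of it is given. Irgm1, an interferon-induced GTPase, was listed at 0 in both E4.0 libraries and stood at 12.02 and 25.5 FPKM at E5.5 and 3.55 and 2.95 FPKM at E6.5. Oasl2, also interferon-induced, was at 0.122 and 0, 10.2 and 21.2 and 2.44 and 1.92 FPKM in the same order. Egln3, an oxygen sensor, was at 0.0725 and 0.507, 17.5 and 15.4 and 4.34 and 3.42 FPKM, and Zcwpw1, a reader of histone marks in meiosis, at 1.51 and 0.276, 23.5 and 27.5 and 9.12 and 6.59 FPKM. Cultured epiblast had Irgm1 at 7.34 and 2.51 FPKM and Egln3 at 1.2 and 0.966 FPKM.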
